A study of Homo sapiens with 64 samples.

Results

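The loss of 4-thiouridine label from mRNA was followed in FBL-depleted C4-2 cells with 8 SLAM-seq libraries, 2 at each of 0, 6, 12 and 24 h, of 64 samples in the whole series. They are the libraries treated with siRNA against FBL (siFBL), and hour and replicate number were taken from each deposited file's name. C4-2 is an established human prostate cancer line. Cells of the siFBL group and of the matching siCTRL group (8 libraries) were grown with 100 μM 4-thiouridine for 24 h and then moved to medium with 10 mM plain uridine. Iodoacetamide treatment of the RNA makes the modified base read as C in place of T, and 3′-end libraries (QuantSeq) were sequenced. A T>C read is a read with at least 1 such conversion. A labelled read without a conversion is not counted, and a conversion from sequencing background is. The share of T>C reads at a gene is therefore not its share of labelled reads, and it also depends on the T positions a read covers. A library of unlabelled cells was not analysed here. No source names the siRNA sequences or the hours between transfection and labelling, or says whether replicates were separate cultures, so p-values measure only the spread between these libraries.

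FBL, fibrillarin, is the methyltransferase of box C/D small nucleolar ribonucleoproteins, which place 2′-O-methyl groups on ribosomal RNA with guide RNAs; the series concerns internal 2′-O-methylation of mRNA by FBL and mRNA stability. When label is chased with uridine, labelled molecules of a short-lived mRNA are replaced by unlabelled ones within hours, while those of a long-lived mRNA persist. Most mRNAs are taken down by removal of the poly(A) tail followed by decapping or 3′-to-5′ decay. AU-rich elements in the 3′ untranslated region, built on the pentamer ATTTA, bind proteins that speed this up, among them the ZFP36 family.

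The hour in the file name equals the hour in the header of each of the 16 SLAM-seq files. It differs from the hour in the sample labels for 6 of the 8 siFBL files and 12 of all 16. By file name the share of T>C reads over all genes fell in an ordered way, whereas the labelled hours put libraries of 5.01% and 54.5% together at 0 h and of 5.17% and 54.3% together at 12 h. The file-name hour is used below, and the library shares and the counts of called genes were also computed with the labelled hours.

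The 24 h siFBL libraries stood apart from the rest. A T>C read carried 1.05 ± 0.0054 conversions in them (SD, n = 2), against 2.09 ± 0.0028 in the siFBL libraries at 12 h and a mean of 1.97 in the siCTRL libraries at 24 h. The covered T positions per read were 21.6 at 24 h and 23.8 at 12 h. In their headers the trimmed read file also has another form of name than in the other 14 SLAM-seq files. Results that use 24 h are given with and without it; whether processing or cells made the difference cannot be told apart.

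FBL itself was almost unread at its chosen 3′ interval (chr19:39834458-39834537, minus strand, hg38). The siFBL libraries held no FBL read, except 2 in replicate 2 at 6 h and 1 in replicate 1 at 12 h. The siCTRL libraries held 29 and 41 reads at 0 h, 35 and 54 at 6 h, 2 and 28 at 12 h, and 6 and 11 at 24 h. Scaled to library size (CPM), siFBL ran from 0 to 0.0859 and siCTRL from 0.127 to 1.92, so the groups did not overlap, but the counts are too low for FBL to enter any test of label loss. Every FBL read in the 16 libraries was a T>C read, at 24 h too, so the share gives no measure of label loss there. The cause was not tested. All 12 C4-2 luminal markers were read in every siFBL library, with KLK3, prostate-specific antigen, at 1752 to 5478 CPM. Of 10 leukocyte and 9 fibroblast markers in the files, 1 and 2 could be tested, and none was called at 6 h against the summed reads. The summed leukocyte markers ran from 9.54 to 28.2 and the fibroblast markers from 51.3 to 68.9 CPM.

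Short-lived regulator mRNAs with an AU-rich nonamer in the measured interval are shown first, as examples of a known decay element in a list of fast mRNAs. Of 41 tested mRNAs of this list, 34 had an interval sequence in GENCODE transcripts of GRCh38, and 6 of these held TTATTTATT. That is 17.6%, against 8.91% of the 8530 tested genes with an interval sequence, and lists that were not fast held it more often (given below). Each line gives 29 bases of the 3′ untranslated region around the first match, 5′ to 3′ on the mRNA strand, with the nonamer in capitals.
DUSP1, chr5:172768643-172768671, minus strand: gggctggtccTTATTTATTtaacttcacc
KLF5, chr13:73077177-73077205, plus strand: ttgtttatctTTATTTATTttgtggtaat
MAFF, chr22:38215914-38215942, plus strand: tccccactgtTTATTTATTgcacggatct
ZFP36, chr19:39409196-39409224, plus strand: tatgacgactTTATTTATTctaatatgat
ZFP36L1, chr14:68788077-68788105, minus strand: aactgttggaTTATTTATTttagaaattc
ZFP36L2, chr2:43223448-43223476, minus strand: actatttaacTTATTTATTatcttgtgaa

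Summed over genes, T>C reads went from most of each siFBL library to a small part of it. The share of T>C reads was 54.5% and 54.3% at 0 h, 29.7% and 29.5% at 6 h, 18.4% and 18.0% at 12 h, and 5.01% and 5.17% at 24 h (replicates 1 and 2). No library overlapped a library of another hour. As a percentage of 0 h, the share of T>C reads was 54.5% at 6 h, 33.5% at 12 h and 9.36% at 24 h. No background was taken off, so these values need not equal the label that remained. The share of converted T positions fell from 6.21% at 0 h to 2.87%, 1.60% and 0.249%. The 0 h libraries exceeded the later ones by 36.8 percentage points on average (exact permutation test, two-sided, p = 0.0714, the smallest that 28 arrangements allow). With the labelled hours this difference was 3.89 points (exact permutation p = 0.786).

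**Figure D1:**
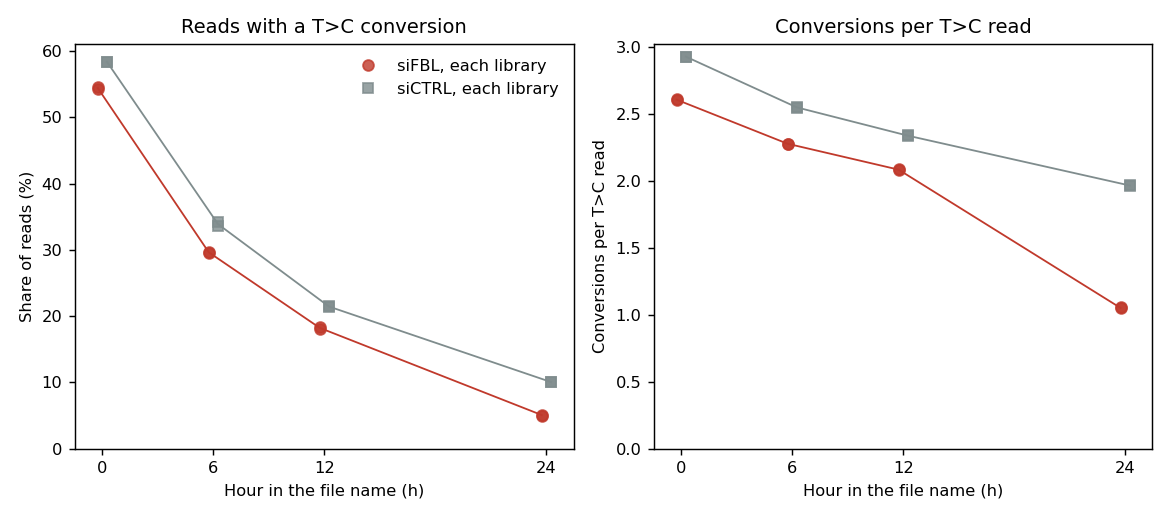
Share of T>C reads (left, %) and conversions per T>C read (right) in each siFBL and siCTRL library against the hour in the file name; points are libraries and lines join means of 2. The siFBL libraries run from 54.5% to 5.01%, and their 24 h points lie at 1.05 conversions per T>C read.

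The siCTRL libraries held means of 58.4%, 33.9%, 21.5% and 10.1% T>C reads at the same hours. At each hour both siFBL libraries were below both siCTRL libraries. As a percentage of 0 h the siCTRL means were 58.1%, 36.8% and 17.3%, so that siFBL was 54.5% at 6 h against 58.1% and 33.5% at 12 h against 36.8%. At any 1 hour, an exact test of 2 libraries a side cannot pass 0.05, and a test over the hours together was not run.

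Between genes the loss ran at very different speeds. Per gene, the interval with the most reads over all 16 files was used. Of 31796 gene names, 21422 had reads, and 10412 had at least 20 reads in each siFBL library and at least 10 T>C reads in all. Over these 10412 genes the median share of T>C reads was 66.8% at 0 h, 25.6% at 6 h, 10.1% at 12 h and 2.37% at 24 h. The median gene thus kept 39.1% of its 0 h share at 6 h and 15.2% at 12 h. Below 10% of the 0 h share were 502 genes at 6 h and 3615 at 12 h. At or above 90% were 488 genes at 6 h and 195 at 12 h.

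Label loss was called for nearly all of them. A quasi-likelihood model of T>C and other reads in edgeR, with hour as a number, called a falling share in 10198 of 10412 genes (97.9%) at a Benjamini-Hochberg adjusted p below 0.05. None was called as rising, at an unadjusted p below 0.05 or with DESeq2, while limma called 1 as rising. Without the 24 h libraries 9642 of 10427 genes (92.5%) were called, 2 of them rising. The remaining comparisons therefore ask how each gene moved relative to the summed reads of its own library. The quantity is the change in the log2 odds that a read is a T>C read, minus the change of those odds over all reads. Negative means that the odds of a gene fell further than those of the summed reads. Below, this is called faster loss, and positive is called slower. The odds depend on the 0 h share too, so faster by odds need not mean that less of that share was kept.

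At 6 h against 0 h, 4931 genes (47.4% of 10412) lost label faster than the summed reads and 964 genes (9.26%) slower. The median gene stood at -1.19 on this log2 scale. Set against the median gene in place of the sum, 1666 genes were faster (16% of those tested) and 2201 slower (21.1%). With conversions over covered T in place of T>C reads, 2396 genes were faster and 855 slower. At 12 h 6587 genes were faster (63.3%) and 1014 slower (9.74%). Leaving the 24 h libraries out of the fit gave 4915 faster and 895 slower at 6 h.

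Short-lived regulators had the lowest median at 6 h of the 22 gene lists examined. List counts at 6 h, here and below, stand beside 47.4% faster and 9.26% slower over all tested genes. Of 41 tested mRNAs of immediate early transcription factors, cyclins and feedback inhibitors, 38 lost label faster than the sum at 6 h, 0 slower, with a list median of -2.92 against -1.19 for all tested genes. Their median share went from 57.1% at 0 h to 5.90% at 6 h, 2.88% at 12 h and 1.64% at 24 h. With the median gene as reference, 28 of 41 were called faster and 1 slower. The order held for 6 h only: at 12 h the 10 tested mitosis genes had a lower median (-4.16 against -3.12), and at 24 h the regulators (-2.04) lay beside the median of all tested genes (-2.03).

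JUN, a subunit of the AP-1 transcription factor (chr1:58780791-58782074, minus strand, 3′ untranslated region), held 51.6% and 49.3% T>C reads at 0 h, 3.67% and 5.64% at 6 h, 2.27% and 3.49% at 12 h, and 1.82% and 2.43% at 24 h. Nearly all of its loss was over by 6 h, and no 0 h library overlapped a later one. Its relative change at 6 h was -2.86 ± 0.18 (SE; edgeR adjusted p = 3.24e-10). MCL1, an anti-apoptotic BCL2 relative (chr1:150574176-150577374), went from 67.5% and 66.5% to 7.66% and 7.62% at 6 h and 1.63% and 1.86% at 12 h. Its relative change was -3.12 ± 0.12 (edgeR adjusted p = 3.58e-13). JUND, another AP-1 subunit, held 66.9% and 69.2% at 0 h and 8.25% and 9.49% at 6 h. MYC, the growth-promoting transcription factor, held 58.0% and 59.1% at 0 h, 4.44% and 5.56% at 6 h, 2.05% and 8.54% at 12 h, and 1.40% and 1.15% at 24 h. The 12 h replicates of MYC differed more than those of any other hour. Its relative change at 6 h was -3.20 ± 0.55 (edgeR adjusted p = 8.89e-05).

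The regulators whose nonamers are printed above held between 3.41% and 18.9% T>C reads at 6 h. DUSP1, a phosphatase that switches off MAP kinases, held 52.7% and 52.1% T>C reads at 0 h and 4.08% and 3.41% at 6 h, a relative change of -3.34 ± 0.51. KLF5, a zinc finger transcription factor, went from 69.9% and 58.6% to 6.45% and 6.00%. MAFF, a small leucine zipper factor, went from 64.3% and 59.5% to 10.5% and 10.2%. ZFP36L1, which itself binds AU-rich elements, went from 74.0% and 72.8% to 15.5% and 13.5%, and its relative change was -2.54 ± 0.12. Its relative ZFP36L2 held 18.9% and 14.3% at 6 h. All 5 were called faster at 6 h in edgeR, with adjusted p-values from 5.32e-12 to 0.014. ZFP36 held 16.1% and 7.52% at 6 h after 72.0% and 67.6% at 0 h, and its relative change of -2.72 ± 1.23 missed the threshold (edgeR adjusted p = 0.0658). The relative changes of the 6 ran from -3.34 for DUSP1 to -1.99 for ZFP36L2, and 4 of them lay above the list median of -2.92, so these genes were not the fastest of the list. IER2, an immediate early gene, missed it too (-2.84 ± 1.32, edgeR adjusted p = 0.0753), with 31.2% and 71.2% in its 0 h replicates.

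Converted T positions over covered T positions gave the following values. The median conversion rate of the short-lived regulators was 4.38% at 0 h, 0.337% at 6 h, 0.132% at 12 h and 0.0604% at 24 h, against 6.84%, 2.26%, 0.776% and 0.101% over all tested genes. For JUN the rate was 2.75% and 2.90% at 0 h and 0.141% and 0.208% at 6 h. For MCL1 it was 6.01% and 5.83% at 0 h and 0.370% and 0.463% at 6 h.

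CCND1, cyclin D1, was slower than the other regulators named here. It held 65.9% and 66.0% at 0 h, 28.5% and 29.1% at 6 h and 6.10% and 6.36% at 12 h. Relative to the summed reads it lost label faster at 6 h (-0.76 ± 0.08; edgeR adjusted p = 4.82e-07), but set against the median gene the sign was the other way (0.27).

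mRNAs of zinc finger genes named ZNF, mostly KRAB repressors of transcription, had the next lowest 6 h median among the lists with at least 10 tested members. Of 331 tested, 227 lost label faster than the sum at 6 h and 1 slower, with a median of -2.38. Their median share was 63.3% at 0 h, 11.4% at 6 h and 4.16% at 12 h. Against the median gene, 93 were called faster and 5 slower, where 16% and 21.1% of all tested genes were.

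**Figure D2:**
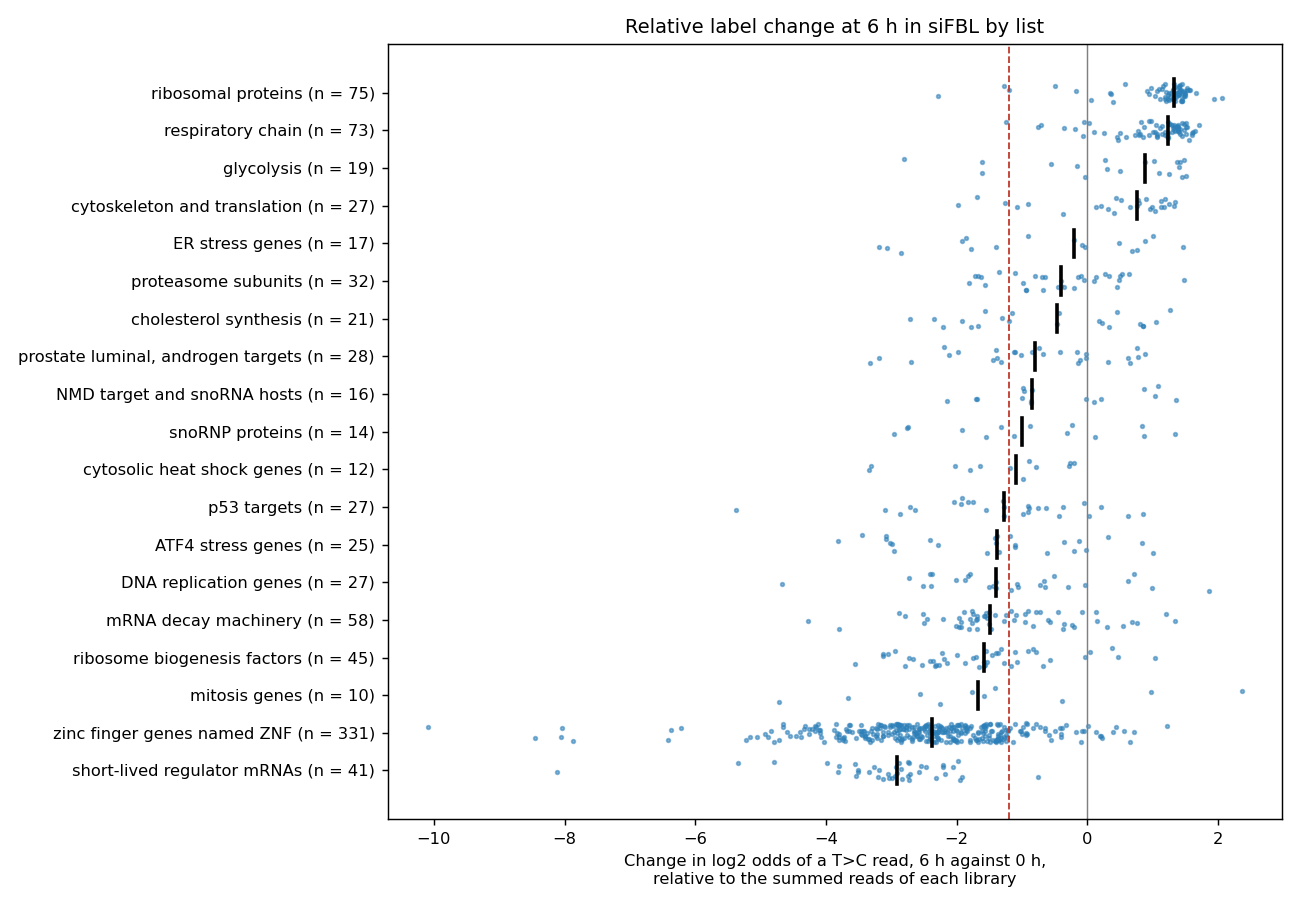
Relative change in the log2 odds of a T>C read from 0 to 6 h in siFBL for each tested member (blue points) of 19 gene lists, with the list median (black bar), the median of all tested genes (red dashed line, -1.19) and the summed reads (grey line at 0). The lists run from a median of -2.92 for short-lived regulators to 1.33 for ribosomal proteins.

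At the other end stood the mRNAs of the translation apparatus and of respiration. Of 75 tested cytosolic ribosomal protein mRNAs, 64 lost label slower than the sum at 6 h and 2 faster, with a median of 1.33. Their median share was 35.9% at 0 h, 31.6% at 6 h, 29.6% at 12 h and 7.59% at 24 h. Of 73 mRNAs of nuclear-encoded respiratory chain subunits, 62 were slower and 2 faster (median 1.23), with shares of 44.3%, 39.0%, 33.0% and 8.35%. Of all tested genes 9.26% were slower than the sum and 47.4% faster. Against the median gene, 68 of 75 and 70 of 73 were called slower and none faster, where 21.1% and 16% of all tested genes were. In both groups most of the fall thus lay between 12 and 24 h, at the libraries that stood apart; in siCTRL the 24 h medians were 24.0% and 20.2%. Reads of these genes can be shared with near-identical processed pseudogenes, and no source says how such reads were assigned.

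RPLP0, a protein of the ribosomal stalk (chr12:120196699-120196772, minus strand), held 16.4% and 16.3% T>C reads at 0 h, 15.7% and 15.5% at 6 h, 15.1% and 15.3% at 12 h, and 7.06% and 6.88% at 24 h. In siCTRL its 24 h mean was 13.6%. Its relative change at 6 h was 1.42 ± 0.05 (edgeR adjusted p = 1.32e-13). RPS29, a small-subunit protein, held 34.3% and 32.0% at 0 h, 33.6% and 32.6% at 6 h, 35.8% and 33.8% at 12 h and 19.3% and 17.8% at 24 h. RPL39 held 26.2% and 25.9% at 0 h, 24.9% and 25.3% at 12 h and 8.60% and 8.48% at 24 h. In all 3 mRNAs the fall between 12 and 24 h was larger than any difference between libraries up to 12 h. Their 0 h shares were also below the 66.8% of the median gene.

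The median conversion rate of the ribosomal protein list was 4.48% at 0 h, 3.71% at 6 h, 3.48% at 12 h and 0.488% at 24 h. RPLP0 converted 1.62% and 1.68% of its T positions at 0 h and 1.38% and 1.45% at 12 h.

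Not every gene with a ribosomal protein name was slow. RPL7L1, a paralog of RPL7, held 63.4% and 62.7% at 0 h, 19.7% and 20.2% at 6 h and 5.95% and 6.90% at 12 h. It lost label faster than the sum (-1.27 ± 0.13; edgeR adjusted p = 1.45e-07), close to the median of all tested genes.

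COX6A1, a subunit of cytochrome c oxidase (chr12:120440538-120440730), held 48.6% and 49.4% at 0 h, 47.6% and 46.3% at 6 h, 39.9% and 40.3% at 12 h and 19.2% and 18.9% at 24 h. Its relative change at 6 h was 1.38 ± 0.11 (edgeR adjusted p = 5.30e-09). NDUFB8, a complex I subunit, held 15.5% and 17.6% at 0 h and 20.4% and 21.0% at 12 h, so its 12 h libraries lay above its 0 h ones. UQCR11, of complex III, held 33.0% and 32.3% at 0 h and 27.4% and 27.6% at 12 h.

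**Figure D3:**
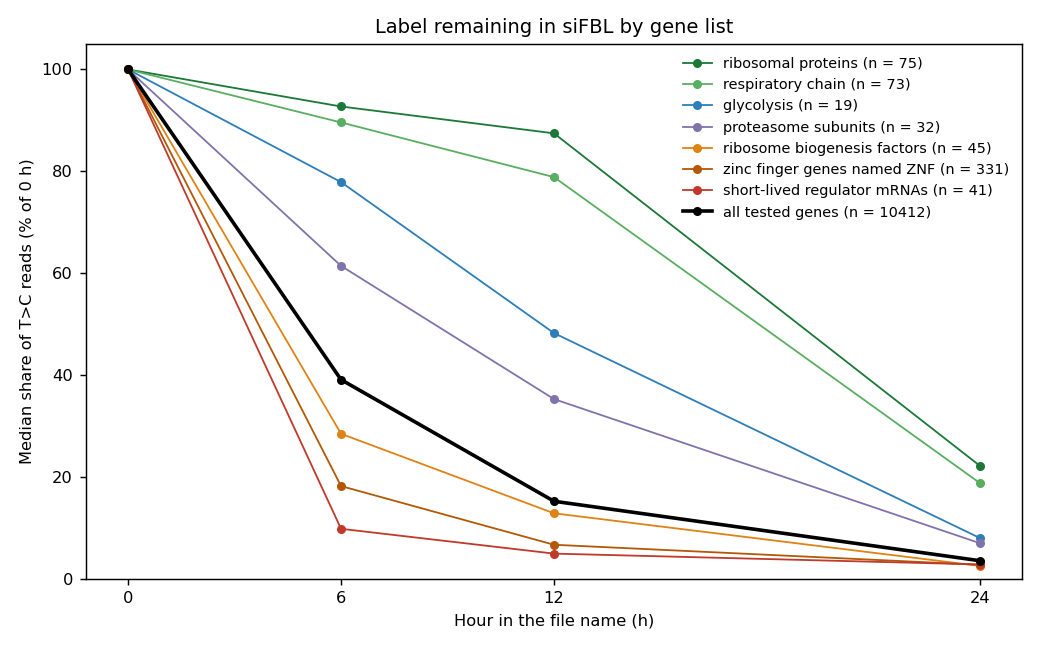
Median share of T>C reads as a percentage of 0 h (y axis) against the hour in the file name for 7 gene lists and for all 10412 tested genes (black) in siFBL. At 6 h the medians run from 9.81% (short-lived regulators) to 92.7% (ribosomal proteins), with 39.1% for all genes.

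Glycolysis and the cytoskeleton held members of both kinds, where 9.26% of all tested genes were slower at 6 h and 47.4% faster. Of 19 glycolysis genes 11 were slower at 6 h and 3 faster (median 0.88), and of 27 cytoskeleton and translation housekeeping genes 16 were slower and 5 faster (median 0.76). GAPDH, a glycolytic enzyme (chr12:6538171-6538371), held 34.2% and 34.1% at 0 h, 32.4% and 32.8% at 6 h and 27.6% and 26.6% at 12 h. At 24 h it held 3.78% and 3.86% in siFBL and a mean of 18.1% in siCTRL. EEF2, the elongation factor that moves the ribosome along, held 62.4% and 62.8% at 0 h and 51.8% and 49.4% at 12 h. The cytoplasmic actins differed: ACTB went from 76.3% and 73.9% at 0 h to 54.6% and 53.4% at 6 h, ACTG1 from 76.7% and 75.5% to 35.4% and 34.5%. At 12 h ACTB stood at 23.9% and 22.5% and ACTG1 at 10.7% and 11.2%, with no overlap at either hour. ACTG1 lost label faster than the sum at 6 h (-1.07 ± 0.08; edgeR adjusted p = 1.07e-09), and ACTB did not pass (0.14 ± 0.08; edgeR adjusted p = 0.144).

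**Figure D4:**
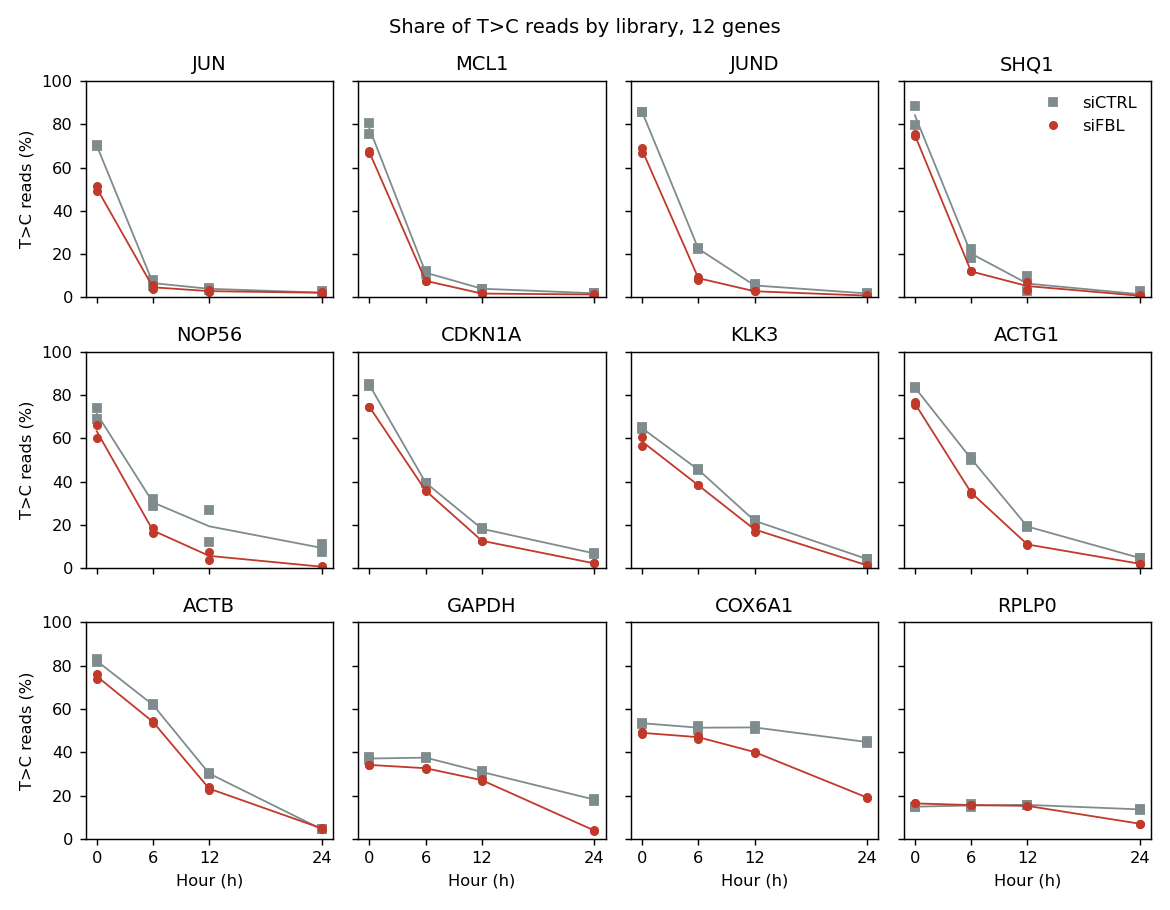
Share of T>C reads (%) by library against the hour in the file name for 12 genes, siFBL in red and siCTRL in grey; points are libraries and lines join means of 2. JUN, MCL1 and JUND lie below 10% in siFBL at 6 h, while RPLP0 stays between 15.1% and 16.4% up to 12 h.

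Proteins that work with FBL in small nucleolar particles had mRNAs near the median of all genes. Tested were 14 proteins of the box C/D and H/ACA particles and their assembly factors. Of these, 6 were faster than the sum at 6 h and 2 slower, against 47.4% and 9.26% of all tested genes. The list median was -1.0. NOP56, a core protein of the box C/D particle (chr20:2658295-2658393), held 60.2% and 66.3% at 0 h, 18.5% and 16.2% at 6 h, 7.33% and 3.94% at 12 h, and 0.855% and 0.411% at 24 h. Its relative change at 6 h was -1.55 ± 0.33 (edgeR adjusted p = 0.000658). NOP58, the other core protein of its kind, held 73.1% and 68.0% at 0 h and 22.6% and 28.3% at 6 h (-1.32 ± 0.46, edgeR adjusted p = 0.0221). SHQ1, a chaperone of dyskerin, fell furthest of the list members named here, from 74.4% and 75.6% to 12.0% and 12.0% at 6 h (-2.96 ± 0.49, edgeR adjusted p = 5.53e-05). ZNHIT6, a box C/D assembly factor, held 21.1% and 27.6% at 6 h. DKC1, dyskerin, held 86.4% and 84.6% at 0 h, 50.3% and 47.7% at 6 h and 16.7% and 13.9% at 24 h.

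Ribosome biogenesis factors lost label faster as a list. Of 45 tested, 36 were faster than the sum at 6 h and 1 slower, with a median of -1.58 and a median share falling from 71.7% to 21.0%. Of all tested genes 47.4% were faster and 9.26% slower at 6 h. By the median gene, 16 of the biogenesis factors were faster and 6 slower. NCL, nucleolin, was among the slower of them, with 75.9% ± 1.3 at 0 h, 42.9% ± 0.35 at 6 h and 20.8% ± 1.0 at 12 h (SD, n = 2). Its relative change of -0.57 ± 0.10 (edgeR adjusted p = 0.000167) had the other sign against the median gene (0.46) and by conversions (0.17).

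mRNAs of the decay machinery, which encode deadenylases, decapping factors and exosome subunits, lay near the median of all genes. Of 58 tested, 35 were faster than the sum at 6 h and 4 slower (median -1.48), against 47.4% and 9.26% of all tested genes. Of 16 nonsense-mediated decay targets and snoRNA host transcripts, 8 were faster and 4 slower (median -0.85). The median member of this list kept 56.1% of its 0 h share at 6 h, against 54.5% for the summed reads. SNHG29, a noncoding snoRNA host, was among the slow ones, with 29.6% and 28.2% at 0 h, 27.0% and 25.5% at 12 h and 8.92% and 8.64% at 24 h.

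Stress and growth genes lay around the median of all genes. Of 27 p53 targets 19 were faster than the sum and 2 slower (median -1.27), of 25 ATF4 stress genes 18 and 3 (median -1.38), and of 12 cytosolic heat shock genes 11 and 0 (median -1.09). Of all tested genes 47.4% were faster and 9.26% slower at 6 h, so the share faster was higher in each of these lists. Set against the median gene, the p53 targets split into 11 faster and 6 slower, where 16% and 21.1% of all tested genes were called. CDKN1A, the cyclin-dependent kinase inhibitor p21 (chr6:36685801-36687337), held 74.5% and 74.5% at 0 h, 36.1% and 35.4% at 6 h, 12.7% and 12.5% at 12 h, and 2.18% and 2.15% at 24 h. Its relative change at 6 h was -0.89 ± 0.05 (edgeR adjusted p = 1.12e-11) and 0.14 against the median gene. PHLDA3, a p53-induced inhibitor of AKT, held 65.6% and 65.7% at 0 h and 26.5% and 26.7% at 6 h (-0.90 against the sum, 0.13 against the median gene). HSPA8, the constitutive HSP70, held 81.2% and 78.0% at 0 h and 30.2% and 27.3% at 6 h (-1.79 ± 0.28, edgeR adjusted p = 3.66e-05).

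Cell cycle mRNAs were sparse. Of 34 mitosis genes in the files 10 could be tested, 4 of them faster than the sum at 6 h and 1 slower, and of 27 DNA replication genes 12 were faster and 1 slower. Both shares of faster genes lie below the 47.4% of all tested genes. The 6 h medians of -1.67 and -1.39 nevertheless lay below the -1.19 of all tested genes. At 12 h 7 of 10 mitosis and 17 of 27 DNA replication genes were called faster, against 63.3% of all. The medians at 12 h were -4.16 and -1.88, against -1.92 for all tested genes. CCNB1, cyclin B1, held 92.4% and 87.0% at 0 h, 38.2% and 40.3% at 6 h and 1.30% and 15.0% at 12 h, where the replicates were far apart. PCNA, the DNA polymerase clamp, held 77.3% and 80.5% at 0 h and 36.5% and 37.7% at 6 h (-1.16 ± 0.25, edgeR adjusted p = 0.00062). Of 21 cholesterol synthesis genes 9 were faster and 6 slower, and HMGCS1, which makes HMG-CoA, held 75.9% and 72.3% at 0 h and 24.8% and 25.9% at 6 h. Proteasome subunits (16 faster, 8 slower of 32) and endoplasmic reticulum stress genes (7 faster, 6 slower of 17) had medians of -0.41 and -0.21. Of all tested genes 47.4% were faster and 9.26% slower, so the faster counts of both lists lay near the rate of all genes. The median members of both lists kept 61.4% and 53.5% of the 0 h share at 6 h, against 54.5% for the summed reads and 39.1% for the median gene. By the part kept, the proteasome list was thus not faster than the summed reads.

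Prostate genes spanned the range. Of 28 luminal and androgen target genes 17 were faster than the sum at 6 h and 6 slower (median -0.79). Of all tested genes 47.4% were faster and 9.26% slower. KLK3 (chr19:50860128-50860764) held 56.5% and 60.4% at 0 h, 38.2% and 38.3% at 6 h, 16.5% and 19.2% at 12 h, and 1.19% and 1.32% at 24 h. It was slower than the sum at 6 h (0.32 ± 0.08; edgeR adjusted p = 0.00354) and faster at 12 h (-0.29; edgeR adjusted p = 0.00514). FOLH1, prostate-specific membrane antigen, was slower at 6 h (0.77) and at 12 h (1.20), both called, with 40.4% and 38.1% at 0 h, 28.9% and 27.4% at 6 h and 23.0% and 20.7% at 12 h. STEAP1, a membrane metalloreductase relative, held 86.8% and 83.8% at 0 h, 58.7% and 54.1% at 6 h and 17.9% and 16.8% at 12 h; its relative change at 6 h of -0.68 ± 0.24 had the other sign against the median gene (0.36) and by conversions (0.33).

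Over the whole chase with hour as a number, 4081 genes (39.2% of 10412) lost label faster than the summed reads and 364 (3.5%) slower. Without 24 h the slope called 6162 genes faster (59.1% of 10427) and 843 slower (8.08%). Against the median gene it called 397 faster (3.81%) and 881 slower (8.46%). Of the 41 short-lived regulators 4 were called faster over the whole chase, but 38 without the 24 h libraries. Of the 75 ribosomal protein genes 44 were called slower with all hours and 67 without 24 h. Leaving out replicate 1 or replicate 2 at 0 h lowered the count of all calls from 4445 to 2652 and 2665.

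Among called genes with at least 100 reads a library on average, the 12 with the lowest relative slopes had 103 to 336 reads. HOXB5, a homeobox transcription factor, had the lowest slope (-0.69 ± 0.14 per hour; edgeR adjusted p = 0.00613). It held 52.9% and 54.8% at 0 h, 6.76% and 0.606% at 6 h, and no T>C read at 12 h or 24 h, where 95 and 142 reads at 24 h allow up to 3.16% and 2.11%. The other 11 of the 12 lowest were RP11-631N16.4, RP11-268J15.6, GASAL1, MROH7-TTC4, MED20, ZNF174, ZNF28, ELF1, REST, FBLL1 and MFSD2A, with slopes of -0.58 to -0.36. REST, the repressor of neuronal genes, held 86.2% and 89.6% at 0 h, 28.7% and 24.5% at 6 h and 8.66% and 0.704% at 12 h. MED20, a Mediator subunit, held 87.9% and 87.8% at 0 h, 11.4% and 21.2% at 6 h and 3.23% and 1.90% at 12 h. FBLL1, the fibrillarin-like paralog of FBL, held 73.2% and 87.7% at 0 h and 16.7% and 6.99% at 6 h. It held no T>C read at 24 h, where 57 and 113 reads allow up to 5.26% and 2.65%. In RNA-seq of siFBL C4-2 cells at 0 h, FBLL1 stood at 0.215 and 0.557 CPM, HOXB5 at 0.974 and 0.808 and MROH7-TTC4 at 0. ZNF174, ZNF28, ELF1, MED20, MFSD2A and REST stood between 15.7 and 41.6 CPM there. Whether reads at the low intervals come from the named mRNAs was not tested. All 12 stayed called without the 24 h libraries, and 8 of the 12 against the median gene; ZNF174, ELF1, FBLL1 and RP11-268J15.6 did not.

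Among the 12 highest slopes were those of GAL, SLPI, PGC and IGFBP2, which encode secreted proteins. GAL, the neuropeptide galanin, held 44.3% and 46.5% at 0 h, 46.0% and 45.2% at 6 h, 51.5% and 53.5% at 12 h, and 37.5% and 39.7% at 24 h. SLPI, a secreted protease inhibitor, held 19.0% and 21.0% at 0 h, 32.6% and 27.5% at 6 h, 28.2% and 31.8% at 12 h and 18.8% and 15.5% at 24 h, so its share was higher at 6 and 12 h than at 0 h in both replicates. PGC, the gastric proenzyme progastricsin, stayed between 22.8% and 30.1% up to 12 h and held 18.6% in both 24 h libraries. IGFBP2, an insulin-like growth factor binding protein, held 12.5% and 13.8% at 0 h and 11.1% and 10.0% at 24 h. Slopes relative to the sum were 0.17 for GAL, 0.17 for IGFBP2, 0.16 for SLPI and 0.16 for PGC per hour, and 0.24, 0.24, 0.27 and 0.20 without 24 h.

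Other intervals among the 12 kept high shares to 24 h. RP11-770J1.8 lay between 62.1% and 71.6% in the 8 libraries, and whether its T>C reads came from label was not tested. NCAPH2, a condensin subunit, held 82.2% and 79.1% at 0 h, 47.4% and 42.4% at 6 h, and 67.3% and 64.9% at 24 h, where siCTRL held a mean of 68.7%; without the 24 h libraries its slope was 0.01 (edgeR adjusted p = 0.817). PHGR1 also lost its call without them (edgeR adjusted p = 0.551). The mitochondrial tRNA intervals MT-TH and MT-TV held 45.5% ± 0.45 and 45.9% ± 5.9 at 0 h and 41.5% ± 0.61 and 52.6% ± 3.1 at 24 h (SD, n = 2); reads from a mitochondrial tRNA and from the mRNA next to it cannot be told apart here. EDARADD, CRISP3 and GPC3 complete the 12. GPC3 had 0.592% and 4.14% at 0 h and 8.42% and 14.3% at 24 h. From the choice of these genes, 8 called intervals among the highest 1% of shares in every siFBL library were left out.

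Total reads at the same intervals, which count labelled and unlabelled mRNA together, changed with hour in fewer genes. In edgeR 1586 of 13324 genes rose (11.9%) and 1671 fell (12.5%); without the 24 h libraries 1710 of 12832 rose (13.3%) and 1768 fell (13.8%). Without replicate 1 at 24 h 1030 genes were called, and 1116 without replicate 2. Reads of 25 of 80 ribosomal protein genes fell and of 2 rose, and without 24 h 66 fell and 0 rose. Among 27 p53 targets 11 fell and 1 rose, and 24 fell and 1 rose without 24 h. CDKN1A fell by 0.15 per hour (log2) without 24 h (edgeR adjusted p = 3.25e-06), and by 0.04 with it (edgeR adjusted p = 0.139). Reads of 14 of 46 short-lived regulators fell and of 1 rose, but without 24 h 5 fell and 10 rose.

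The pace of label loss was set beside a readout from other libraries, the RNA-seq course of mRNA half-life in C4-2 with siFBL. No source names the agent, if any, that stopped transcription there. Genes were divided into 5 equal groups by their relative change at 6 h. Median log2 CPM at 12 h over 0 h in that course was -2.06 in the fastest group, then -1.06, -0.34 and 0.03, and 0.33 in the slowest. The slowest and the fastest group were thus 2.39 apart. Spearman's rho across 9396 genes was 0.72, a description over genes that share the libraries. JUN went from 52.0 and 73.1 to 0.135 and 0.553 CPM in that course, and MYC from 488 and 434 to 1.29 and 0.609. RPLP0 went from 3173 and 3005 to 4302 and 4590, and COX6A1 from 368 and 334 to 540 and 563. All 41 short-lived regulators were lower at 12 h (median -4.44), as were 320 of 330 ZNF genes (median -2.06), 4 of 75 ribosomal protein genes (median 0.63) and 1 of 55 respiratory chain genes (median 0.51). Over all matched genes 6093 of 9396 were lower.

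The readouts differed for KLK3. Its share of T>C reads fell from 56.5% and 60.4% to 16.5% and 19.2% by 12 h, and its RNA-seq value was 3150 and 2432 CPM at 0 h and 4572 and 3890 at 12 h. CPM is relative to the other RNA of a library, so values above 0 h need not mean more mRNA.

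In the RNA bound by FBL in siCTRL cells, the median log2 ratio of RIP over input was -0.65 in the fastest group, -0.82 in the middle and -1.30 in the slowest, a difference of -0.65 between the slowest and the fastest. Spearman's rho across 9396 genes was -0.19. The ribosomal protein and respiratory chain lists had medians of -1.71 and -2.62, and all matched genes -0.85. These libraries come from cells with FBL and hold 2 samples a side.

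The intervals of fast and slow genes also differed in length and sequence. Median length was 1740 bases in the fastest group and 540 in the slowest, and T made up 31.5% and 26.1% of bases. The pentamer ATTTA, searched on the mRNA strand, was present in 83.9% of intervals with a sequence in the fastest group, in 80.3%, 76.8% and 66.1% of the next, and in 43.6% of the slowest, against 69.9% of all. Among intervals of 500 to 1500 bases these shares were 78.9% in the fastest and 55.3% in the slowest group. The nonamer TTATTTATT, which contains the pentamer, was present in 11.6% and 3.93%, and TGTANATA, the motif of Pumilio proteins, in 39.0% and 10.5%. Among intervals of 500 to 1500 bases the nonamer was in 6.10% and 3.36%, and TGTANATA in 25.9% and 9.45%. Per kilobase the nonamer occurred 0.072 times in the fastest and 0.053 times in the slowest group. By list, it was in 6 of 34 short-lived regulators, 24 of 246 ZNF genes and 0 of 66 ribosomal protein genes. It was also in 9 of 22 p53 targets, 5 of 20 ATF4 stress genes and 4 of 16 glycolysis genes, against 8.91% of all. ATTTA was found in 28 of 34 short-lived regulators, in 187 of 246 ZNF genes and in 25 of 66 ribosomal protein genes, whose median interval length was 319 bases against 1325 for the regulators. The lists did not follow their 6 h medians throughout: the pentamer was in 11 of 13 endoplasmic reticulum stress genes, 10 of 12 nonsense-mediated decay targets and snoRNA hosts and 37 of 46 decay machinery genes, and in 7 of 19 DNA replication genes. Covered T positions per read at 0 h fell from 28.1 in the fastest to 21.1 in the slowest group. With conversions over covered T in place of T>C reads, Spearman's rho between the change at 6 h and ATTTA per kilobase across 8530 genes was -0.20 in place of -0.26.

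**Figure D5:**
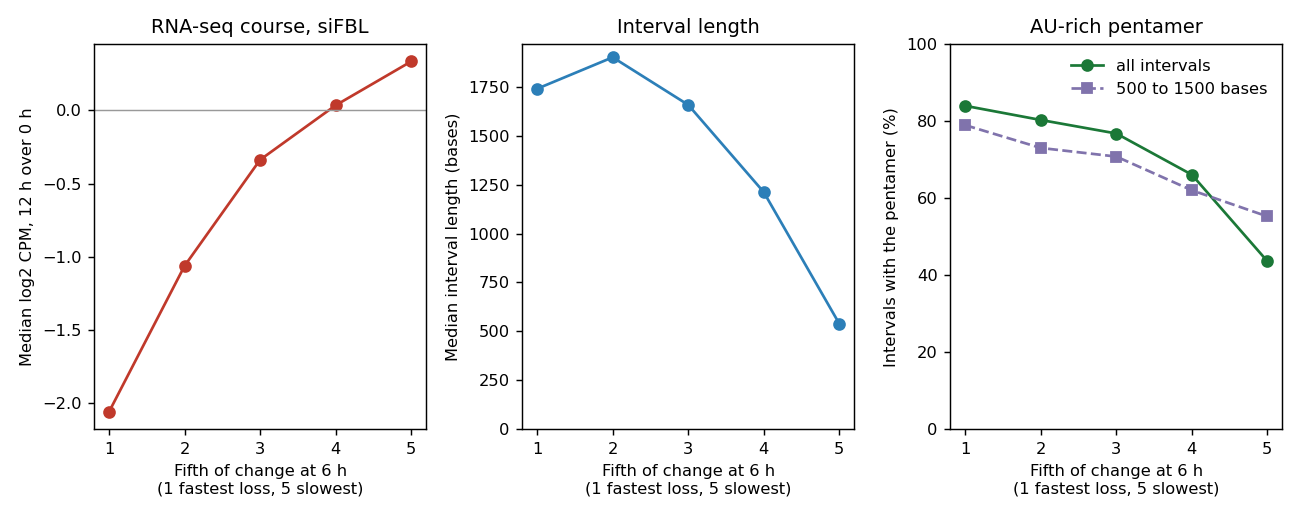
Genes in 5 equal groups by relative change at 6 h (1 fastest, 5 slowest; x axis): median log2 CPM at 12 h over 0 h in the siFBL RNA-seq course (left), median interval length in bases (middle), and the percentage of intervals with the pentamer ATTTA in all intervals and in those of 500 to 1500 bases (right). The RNA-seq medians rise from -2.06 to 0.33 and the pentamer falls from 83.9% to 43.6%.

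Genes with a low share at 0 h tended to be slow (Spearman's rho -0.41 across 10412 genes). The median 0 h share was 69.9% in the fastest group and 50.9% in the slowest. Both come from the same 0 h reads, so the 2 quantities are not independent.

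A direct test of siFBL against siCTRL called few differences in pace relative to the summed reads. Each gene was set against its own library's sum, so a difference in pace shared by all genes was not tested here. In simulated data this test recovered 44.5% of differences of 0.1 per hour, so differences of that size can be missed. With an interaction term over all 16 libraries, edgeR called 3 of 10085 genes (0.0297%), all with slower relative loss in siFBL, and 1244 at an unadjusted p below 0.05. They were SLC31A1, a copper transporter (difference of slopes 0.18 per hour, adjusted p = 0.00997), ZC3H10, an RNA-binding protein (0.83, adjusted p = 0.0297), and PLA2G15, a lysosomal phospholipase (0.30, adjusted p = 0.0431). SLC31A1 held 3.37% and 4.16% T>C reads at 24 h in siFBL against 0.601% and 0.761% in siCTRL. None of the 3 stayed called without the 24 h libraries of both groups, where 1 of 10336 genes was called. That gene was SRP14, a protein of the signal recognition particle, chosen after its values were seen (-0.13 per hour, edgeR adjusted p = 0.0078). SRP14 held 63.5% and 63.9% at 0 h in siFBL against 47.2% and 46.2% in siCTRL, and 25.5% and 26.2% at 12 h against 35.4% and 34.5%. DESeq2 called 147 genes and limma 7 with all hours. Without replicate 1 or replicate 2 of siFBL at 24 h, edgeR called 0 genes. List medians of the difference ran from -0.05 for ribosomal proteins to 0.12 for the 8 mitosis genes in this fit, against 0.03 for all genes. Without the 24 h libraries they ran from -0.03 for DNA replication genes to 0.06 for short-lived regulators, again against 0.03.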

How the data were processed

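Reads were trimmed with Trim Galore and set to hg38, per the submitters' processing notes; slamdunk 0.4.3 made the tables per 3′ interval, per the file headers. The deposited conversion fraction per interval, a column of slamdunk per the file headers, was not used beyond a check that it equals conversions over covered T. The deposited files give counts of reads, T>C reads, covered T and conversions for 117417 lines per library (99090 distinct intervals, 18327 repeats counted once). Mapped reads ran from 14.3 M to 60.3 M in the siFBL libraries. Counts of the RNA-seq and RIP files were deposited by the authors as raw counts and scaled here to CPM, with a pseudocount of 1 CPM.

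Shares were tested in edgeR 4.0.16 with one intercept per library on the T>C and other reads (Python 3.11.15, R 4.3.3; limma 3.58.1 and DESeq2 1.42.0 as alternatives); adjusted p-values are Benjamini-Hochberg over all genes tested, with at least 20 reads in each library. The scripts were tested on simulated data with a set spread between libraries. Of 200 genes given a slope change of 0.1 per hour, the relative slope recovered 67.5% and the change at 12 h 0%. The test of siFBL against siCTRL recovered 44.5%. Intervals cover counting error only: at 95% confidence (Wilson) the median width either side for named genes was 1.69 points, and the widest, for the 1 FBL read at 12 h, 39.7. Upper limits for a count of 0 use 3 counts. Interval sequences came from GENCODE v29 transcripts of GRCh38; 17229 of 21422 intervals matched and all 17229 held the deposited number of T.

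The members, gene lists and tests were chosen with earlier results of these data known. Named genes were FBL, NOP56 and MYC; the 12 lowest and 12 highest called slopes with at least 100 reads on average, leaving out intervals in the top 1% of shares in all libraries; up to 3 called members of each of 22 lists in each direction; and called genes of the siFBL against siCTRL test. Not all of these are printed. GAPDH, ACTB, JUN, MCL1, RPL39, CDKN1A, KLK3, NOP58, DKC1 and SRP14 were chosen after their values were seen, and the regulators with a nonamer for their sequence. Replicate numbers did not pair the samples: correlations of deviations lay between -0.03 and 0.04.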

Additional observations from a re-analysis of the deposited data

Results flagged for a closer look

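Label loss differed between siFBL and siCTRL, by the interaction term in edgeR, for 3 genes: SLC31A1 (0.18 per hour, slower relative loss in siFBL; adjusted p = 0.00997), ZC3H10 (0.83; adjusted p = 0.0297) and PLA2G15 (0.30; adjusted p = 0.0431). ZC3H10 held 30.2% and 31.2% T>C reads at 0 h in siFBL against 68.8% and 69.0% in siCTRL, 5.26% and 6.21% against 1.02% and 7.86% at 6 h, and 17.5% and 18.3% at 12 h, where siCTRL held none in 141 and 317 reads, which allow up to 2.13% and 0.946%. Without the 24 h libraries the differences were 0.09, 0.86 and 0.21 per hour, and none passed (adjusted p = 0.496, 0.107 and 0.333).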

How the results depend on the processing

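With the labelled hours in place of the file-name hours, edgeR called 0 genes for the absolute slope, the relative slope, the changes at 6, 12 and 24 h, siFBL against siCTRL and the slope of total reads (0, 51, 238, 2, 243, 2 and 130 genes at an unadjusted p below 0.05; no other tool was run on them); the cause was not tested. Signs then turned for the changes at 6 h of NCL (0.45), PHLDA3 (0.18), STEAP1 (0.24), PCNA (0.68) and HMGCS1 (0.30), for the slopes of REST (0.020), FBLL1 (0.041), MT-TV (-0.012), RP11-770J1.8 (-0.00103), MT-TH (-0.022), EDARADD (-0.034), NCAPH2 (-0.053) and PHGR1 (-0.063), and for the difference of SLC31A1 (-0.020). Against the median gene, 3867 genes were called at 6 h, 4873 at 12 h, 3872 at 24 h, 1278 by slope and 0 for siFBL against siCTRL (0 also without 24 h; 698 and 605 at an unadjusted p below 0.05), and the 6 h changes of CCND1 (0.27), NCL (0.46), CDKN1A (0.14), PHLDA3 (0.13) and STEAP1 (0.36) turned. By conversions over covered T, 3251 genes were called at 6 h and 57 for siFBL against siCTRL (5 without 24 h), and NCL (0.17) and STEAP1 (0.33) turned. ACTB, not called, stood at -0.0088 summed over intervals, where 27 genes were called for siFBL against siCTRL. With 1 interval per gene, limma called 7 for siFBL against siCTRL, DESeq2 147 and the fit without 24 h 1. Without 24 h the relative slope called 7005.

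With a replicate block the counts were 10126 (absolute slope), 3808 (relative slope), 5795, 7549 and 7383 (6, 12 and 24 h), 1 (siFBL against siCTRL) and 2569 (total reads). Shared numbers did not pair the libraries.

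With 1 library left out at a time, where the lone library of an hour is assumed to vary like the others, calls ran from 2652 to 4520 for the relative slope, 0 to 7 for siFBL against siCTRL and 1030 to 3620 for total reads. The RNA-seq difference of 2.39 between slowest and fastest group was 2.78 with a pseudocount of 0.1 CPM, 1.64 with 5 CPM and 2.61 for genes of at least 5 CPM; the RIP difference was -0.79, -0.47 and -0.79.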
